A study of Homo sapiens with 12 samples.

Results

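The R2 libraries of an RNA sequencing series were compared with the first libraries of the same groups. A549 is an established human lung carcinoma line. The series holds a control line (Control1) and 2 lines with a knockout of NFE2L1, KO1 and KO2, each treated for 4 h with DMSO vehicle or with 200 nM bortezomib, which inhibits the proteasome. Each of these 6 groups has 2 libraries, so all 12 libraries of the series enter, 6 titled R2 and 6 titled either R1 (the KO groups) or without a suffix (the control groups), and they are called first here. The labels do not say whether the suffix marks a culture, a day or a sequencing run, nor whether KO1 and KO2 are single clones. All 12 carry the same protocol: cells were scraped into PBS and pelleted, total RNA was purified on columns, and cDNA was primed with random hexamers. P-values measure the spread between these libraries, which may be technical.

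The gene classes compared differ in where their mRNA is translated and where their product works. An mRNA for a secreted or membrane protein usually starts translation in the cytosol, and a hydrophobic stretch in the emerging protein, the signal peptide or the first membrane span, directs the ribosome to the endoplasmic reticulum (ER). There the protein is threaded through the SEC61 channel, so these mRNAs are attached to a membrane while they are translated. Proteins of the cytosol, the nucleus and most proteins of mitochondria are made on free ribosomes. Tail-anchored membrane proteins, whose only span lies at the C terminus, are also finished in the cytosol before insertion. A small set of mRNAs is transcribed and translated inside mitochondria, and several long noncoding RNAs stay in the nucleus.

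The sequences below are examples of a feature by which genes are grouped further on. They are the first 35 codons of coding sequence (105 bases, 5′ to 3′, GENCODE 29 transcripts, GRCh38), with the most hydrophobic 9 codons in capitals. The first 2 encode proteins that enter the ER. They are the disulfide isomerase AGR2 (chromosome 7, 16791811 to 16833433, minus strand) and the lysosomal protease CTSD (chromosome 11, 1752752 to 1763992, minus strand). The next 2 encode cytosolic proteins, the small heat shock protein HSPB1 (chromosome 7, 76302544 to 76304295, plus strand) and the prefoldin subunit PFDN2 (chromosome 1, 161100556 to 161118111, minus strand).
AGR2: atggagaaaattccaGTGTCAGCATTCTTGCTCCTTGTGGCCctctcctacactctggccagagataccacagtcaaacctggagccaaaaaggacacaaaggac
CTSD: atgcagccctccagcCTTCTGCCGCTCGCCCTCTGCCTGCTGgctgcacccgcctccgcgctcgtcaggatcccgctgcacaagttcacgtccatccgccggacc
HSPB1: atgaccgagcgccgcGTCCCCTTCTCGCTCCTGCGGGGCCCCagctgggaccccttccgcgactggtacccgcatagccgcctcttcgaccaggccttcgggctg
PFDN2: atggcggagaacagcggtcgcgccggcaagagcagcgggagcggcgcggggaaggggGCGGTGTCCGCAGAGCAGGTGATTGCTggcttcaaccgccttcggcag
The capitals encode 9 residues with a mean Kyte-Doolittle hydropathy (a scale on which hydrophobic residues are positive) of 2.82 in AGR2 and 2.83 in CTSD. In HSPB1 that mean was 0.633 and in PFDN2 1.17. AGR2 and CTSD were higher in R2 libraries and HSPB1 and PFDN2 lower, with the values given further on. These genes were picked as examples, and AGR2, HSPB1 and PFDN2 are among the largest differences.

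SEC61B (chromosome 9, 99222064 to 99230615, plus strand), a tail-anchored subunit of the SEC61 channel, is shown at both ends because its hydrophobic stretch comes last. The first line is codons 1 to 35 and the second codons 62 to 96, marked in the same way.
SEC61B start: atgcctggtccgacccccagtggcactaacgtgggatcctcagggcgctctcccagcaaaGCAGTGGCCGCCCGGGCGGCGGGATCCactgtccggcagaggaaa
SEC61B end: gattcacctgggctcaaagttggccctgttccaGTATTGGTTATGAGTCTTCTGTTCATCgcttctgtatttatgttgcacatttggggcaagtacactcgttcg
The hydropathy of the capitals was 0.833 at the start and 3.13 at the end. Its mRNA was lower in R2 libraries, while that of SEC61A1, the channel's multi-span core, was higher.

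The difference between the library sets reached most expressed genes. Values are deposited FPKM (fragments assigned to a gene, divided by its length and by library depth), and a difference is the R2 value minus the first value of the same group on the log2(FPKM + 1) scale. Of 12194 genes whose FPKM averaged 1 or more, 9561 (78.4%) were called by limma at a Benjamini-Hochberg adjusted p-value under 0.05 with the group as a term. Of these, 3686 (30.2% of genes tested) were higher in R2 libraries and 5875 (48.2%) were lower. All 6 R2 libraries lay above all 6 first libraries in 1055 genes (8.65%) and below them in 2600 (21.3%). The median over all genes tested was -0.21, and over the 10637 protein-coding genes -0.28. FPKM is a share of the library, so this centre depends on scaling: when each library was rescaled to a common median the all-gene median was -0.02, with 37.5% of genes higher and 38.3% lower. In bulk RNA, a change in the number of cells of a kind and a change in RNA per cell cannot be told apart. Higher genes made up 38.6% of calls as deposited and 49.5% after that rescaling.

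Depth ranged from 13211608 to 23819258 assigned reads, and R2 libraries had more reads in 4 of 6 pairs (exact two-sided paired permutation test, p = 0.406, where the smallest possible is 0.03125). More genes were above 0 in the R2 library of 5 of 6 pairs, with 20713 to 22471 genes in first and 22227 to 23593 in R2 libraries (the same exact permutation test, p = 0.0625, 0.125 adjusted over the 2 tests). NFE2L1, a transcription factor made as an ER membrane protein, was the knockout target. In vehicle its FPKM was 72.7 in the first and 151 in the R2 control library, 8.45 and 14.8 in KO1, and 18.6 and 33.6 in KO2. In bortezomib these were 109 and 189 in the control line, 27.04 and 35.8 in KO1, and 36.7 and 50.8 in KO2. Every KO library was below every control library in both sets, and in all 6 pairs the R2 library was higher, by 0.71 ± 0.10 (SE, limma adjusted p = 9.71e-05). All 14 listed A549 markers passed the expression filter. Of the markers of other cells, 1 of 10 fibroblast (COL1A1), 1 of 8 endothelial (ESAM), 2 of 10 leukocyte (CD14 and ITGAM) and 0 of 7 erythroid genes did, as did 2 of 7 genes of embryonic kidney or cervical lines (LIN28B and SOX2), a list in which CDKN2A was at 0 throughout. The summed FPKM of the fibroblast list was 5.20 to 13.1 in first and 2.47 to 25.2 in R2 libraries, and that of the leukocyte list 1.62 to 4.48 and 2.90 to 5.92.

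The protein-coding genes were grouped by protein features computed from the coding sequence. GENCODE 29 translations were available for 10586 of the 10637. A membrane span was a window of 19 residues with mean hydropathy of at least 1.6 after residue 35, and an N-terminal stretch was a window of 9 residues with a mean of at least 2.0 within the first 35. Among 6648 genes with neither, 636 were higher and 4593 lower in R2 libraries, with a median of -0.49. Among 409 genes with over 5 spans, the typical transporter or channel, 379 were higher and 7 lower, with a median of 0.72. Genes with 2 to 5 spans lay between, with 578 higher and 125 lower of 858 and a median of 0.54. An N-terminal stretch alone, the pattern of a secreted protein, gave 528 higher and 287 lower of 1009 and a median of 0.35. Genes with 1 span gave 724 higher and 581 lower of 1662 and a median of 0.12.

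**Figure D1:**
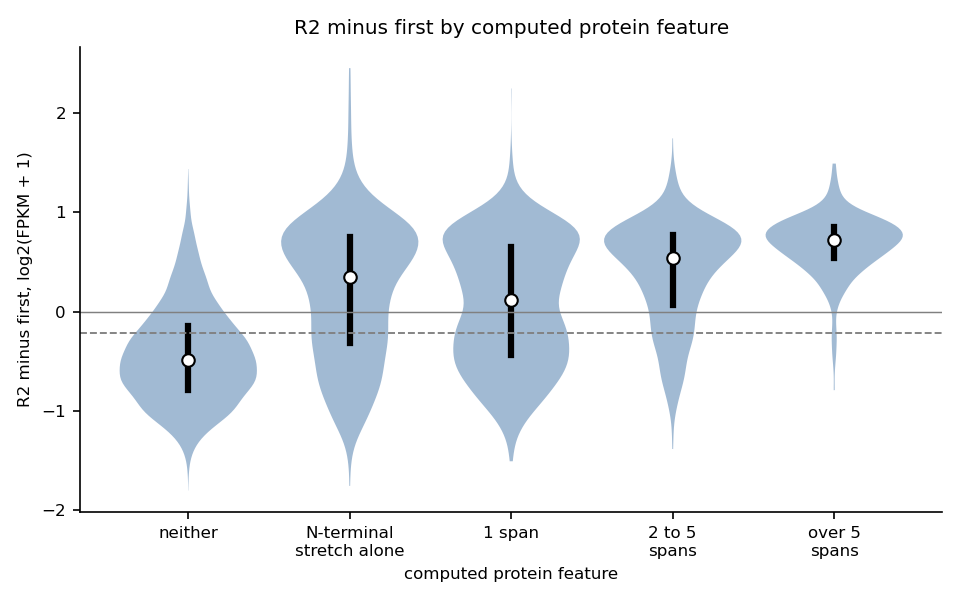
Distribution of the R2 minus first difference (log2(FPKM + 1) scale) of protein-coding genes by computed protein feature, with white points at medians, black bars at quartiles and a dashed line at the all-gene median. The median is -0.49 for genes with neither feature, 0.35 for an N-terminal stretch alone and 0.12 for 1 span. It is 0.54 for 2 to 5 spans and 0.72 for over 5 spans, and the 1-span class is wide.

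Genes with a single span split by where the first hydrophobic stretch lay. With an N-terminal stretch as well, 80.5% were higher and 7.29% lower, with a median of 0.67. Without one, 25.3% were higher and 48.6% lower, with a median of -0.21, beside 26.9%, 52.8% and -0.28 over all protein-coding genes. The rule is crude. It gave a feature to 16 of 84 ribosomal proteins and missed 3 of 33 lysosomal ones. It also does not set apart tail-anchored proteins, which do have a span, and 33 of 37 of them met it. The order of 3 groups, neither feature, an N-terminal stretch alone and 2 or more spans, held within each of 5 equal bins of genes by GC content, by deposited length and by mean FPKM. For genes with neither feature the medians were -0.61 to -0.20 across the bins of GC content and -0.83 to -0.26 across those of FPKM. For genes with 2 or more spans they were 0.58 to 0.68 and 0.37 to 0.81.

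The largest differences followed the same division. The 12 protein-coding genes with the largest rise in R2 libraries, among those with 1 sign in all pairs, included TFF1, AGR2, MMP7, CEACAM6, CST1, NTS, VTN, CYP1B1, PTGS2, AQP3 and CP. All 12 had an N-terminal stretch or a span, while 6648 of the 10586 genes with a translation had neither. They include secreted proteins (the trefoil factor TFF1, the metalloproteinase MMP7, ceruloplasmin CP), the water channel AQP3, and the ER-bound enzymes PTGS2 and CYP1B1. The 12 largest falls were CDA, S100A11, BASP1, COTL1, HSPB1, SH3KBP1, PTRF, RAD23B, RALB, TUBA4A, SH3BGRL3 and PFDN2, of which 1 (S100A11) met a feature rule. S100A11 is a calcium-binding protein with no signal peptide, and CDA is the soluble enzyme cytidine deaminase.

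TFF1 was at 2.35, 4.80 and 8.06 FPKM (lowest, median and highest) in first libraries and at 16.1, 28.8 and 63.4 in R2 libraries. The sets did not overlap, and the difference was 2.45 ± 0.20 (limma adjusted p = 7.25e-06). It rested on few reads at the low end, 18 in the lowest library. AGR2 was at 2.70, 16.5 and 70.9 FPKM in first and at 27.9, 89.2 and 385 in R2 libraries. Those ranges overlap because AGR2 differs between groups, and each R2 library was above its partner, by 2.08 to 2.97. HSPB1 was at 161, 397 and 1018 FPKM in first and 46.6, 103 and 472 in R2 libraries, again overlapping as sets and lower in every pair, with a difference of -1.59 ± 0.13. PFDN2 fell from a median of 70.1 to 20.9 FPKM, and its highest R2 library (35.4) was below its lowest first library (40.2).

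**Figure D2:**
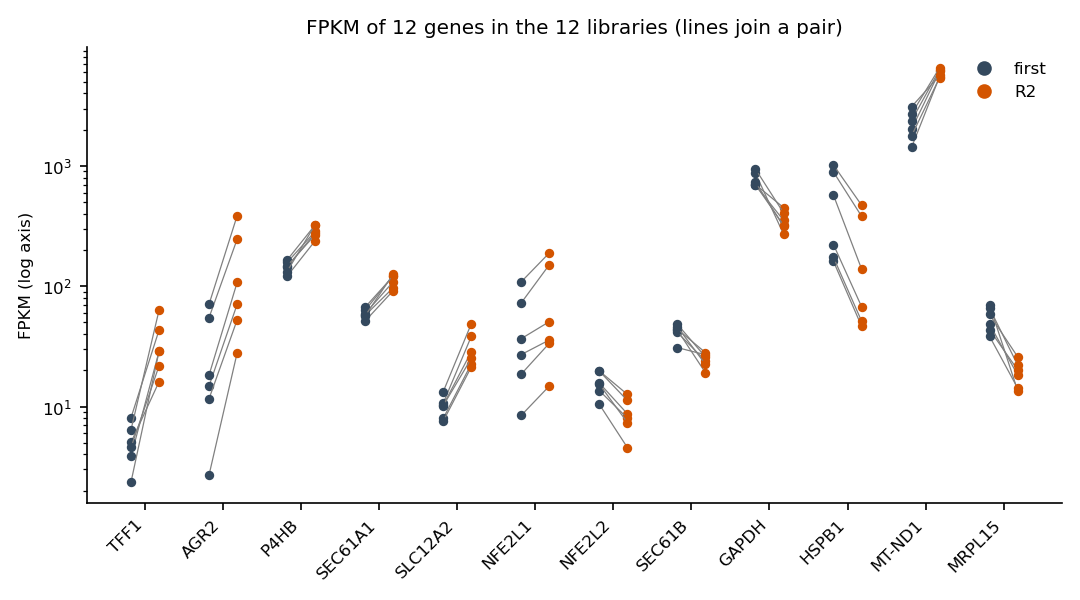
FPKM (log axis) of 12 genes in each of the 12 libraries, with first libraries in dark blue, R2 libraries in orange and lines joining the libraries of a group. Lines for TFF1, AGR2, P4HB, SEC61A1, SLC12A2, NFE2L1 and MT-ND1 go up in all 6 pairs, and those for NFE2L2, SEC61B, GAPDH, HSPB1 and MRPL15 go down.

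Genes of the secretory pathway were mostly higher in R2 libraries, 186 higher and 20 lower of 228 tested, with a median of 0.73. Among ER lumen folding genes, 41 of 42 were higher and 0 lower, with a median of 0.73. P4HB, a protein disulfide isomerase, was at 121, 146 and 165 FPKM in first and 239, 282 and 325 in R2 libraries, a difference of 0.98 ± 0.09 with no overlap. Calnexin (CANX), a lectin chaperone, differed by 0.79 and HSPA5, the ER HSP70, by 0.62. Lysosomal genes gave 32 higher and 1 lower of 33, with a median of 0.86. CTSD was at 26.4 to 58.9 FPKM in first and 59.9 to 130 in R2 libraries, and the exception was IDS at -0.29. Golgi enzymes gave 23 higher and 0 lower of 24 (median 0.63), and secreted and matrix genes 52 higher and 2 lower of 72 (median 0.54), the 2 being SPOCK1 and MMP2.

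**Figure D3:**
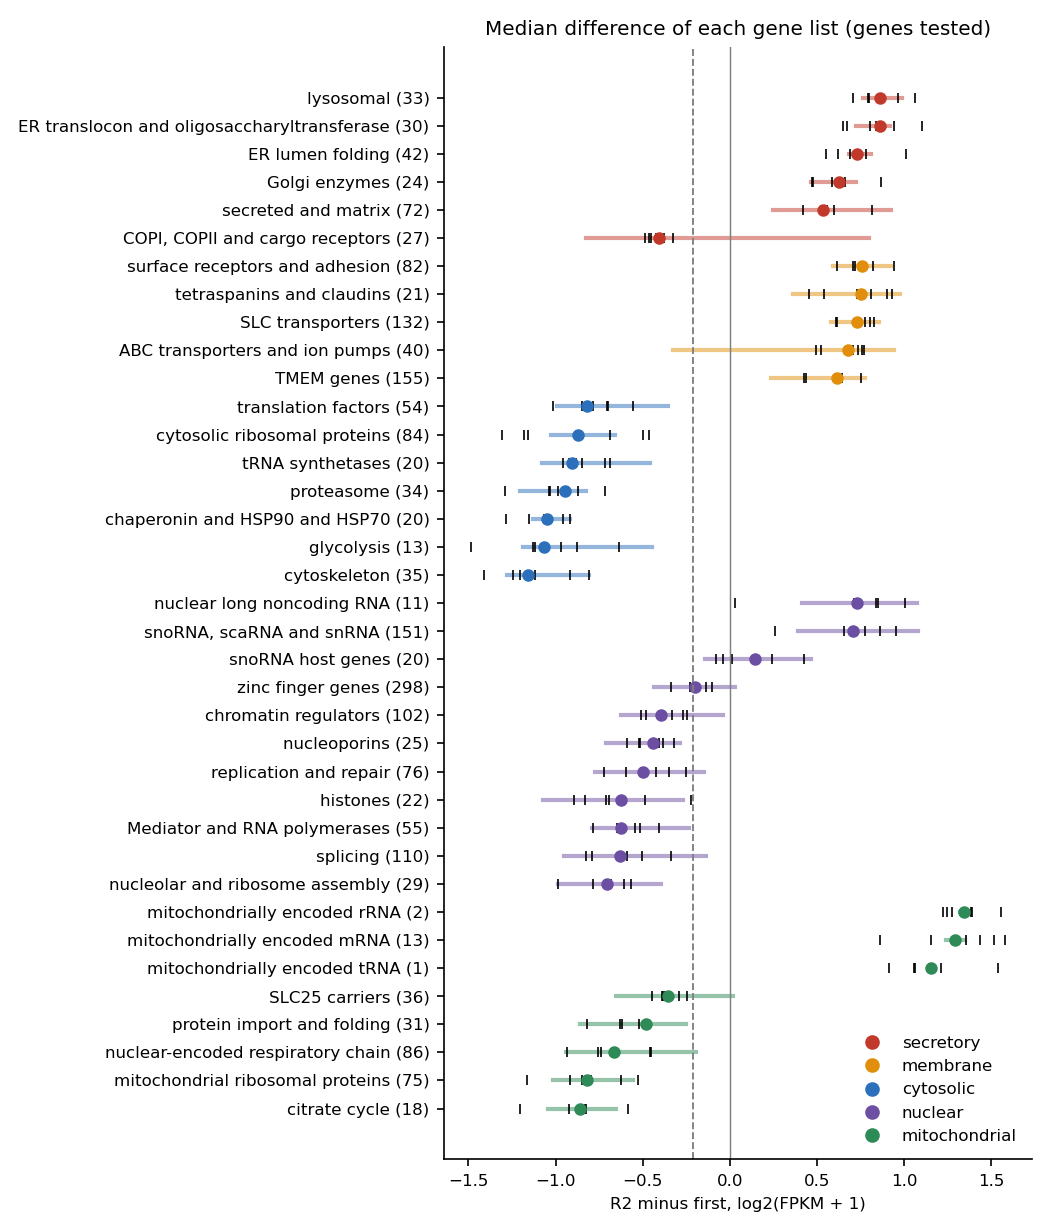
Median R2 minus first difference (log2(FPKM + 1) scale) of the 37 lists of the 5 classes written first, with the number of genes tested, coloured bars for quartiles, black ticks for the median in each of the 6 pairs and a dashed line at the all-gene median. The plotted secretory and membrane lists lie above 0 except the list that joins coat proteins with cargo receptors (median -0.41), cytosolic lists lie below 0, and mitochondrial lists lie at both ends.

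Machinery of the pathway that works on the cytosolic face went the other way from its membrane partners. The coat subunits of COPI and COPII vesicles, soluble proteins that assemble on the membrane, gave 1 higher and 15 lower of 18, with a median of -0.68. The TMED and KDEL cargo receptors that span the same vesicles gave 11 higher and 1 lower of 12, with a median of 0.83. ARCN1, a COPI subunit, was at 39.3 to 62.2 FPKM in first and 15.8 to 24.0 in R2 libraries (-1.27 ± 0.08), and TMED4 at 16.0 to 27.1 and 34.9 to 60.7 (1.11 ± 0.07). Proteins of the signal recognition particle, which binds signal peptides in the cytosol, gave 5 lower of 6 (median -0.998), with SRP9 at -1.26. SRPRB, the membrane-anchored subunit of its receptor, differed by 1.003. These smaller lists were drawn up after the values were seen, so their division is a description.

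The SEC61 channel and the oligosaccharyltransferase that glycosylates proteins beside it gave 27 higher and 3 lower of 30, with a median of 0.86. The 3 lower genes were SEC61G (-1.07), OST4 (-0.97) and SEC61B (-0.77). SEC61B was at 30.9, 43.6 and 48.3 FPKM in first and 19.1, 24.9 and 28.1 in R2 libraries, and SEC61A1 at 51.4, 58.3 and 67.0 and then 91.9, 115 and 126. Neither gene's sets overlapped. Over a list of tail-anchored proteins, 32 of 37 were lower and 2 higher (VAMP2 and SQLE), with a median of -0.72. That list was drawn up after the values were seen and includes SEC61B and SEC61G, so its values are a description. The vesicle fusion protein VAMP3 differed by -1.14.

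Membrane protein genes gave 361 higher and 24 lower of 430, with a median of 0.70. Surface receptors and adhesion genes gave 78 higher and 0 lower of 82 (median 0.76). The growth factor receptor EGFR was at 34.6 to 57.7 FPKM in first and 49.97 to 86.4 in R2 libraries (0.59 ± 0.13, limma adjusted p = 0.00152), and FGFR4 differed by 1.34. SLC transporters, which move solutes across membranes, gave 93.2% higher and 3 genes lower of 132 (median 0.73). SLC12A2, a sodium, potassium and chloride cotransporter, was at 7.56, 10.2 and 13.3 FPKM in first and 21.3, 26.8 and 48.8 in R2 libraries. Cytochromes P450 and UGT enzymes, anchored in the ER and chosen as a list after the values were seen, gave 15 higher and 0 lower of 19, with CYP1B1 at 13.9 to 25.2 and 33.9 to 119 FPKM.

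The list of ABC transporters and ion pumps held both directions, 27 higher and 11 lower of 40. The proton pump of lysosomes, the V-ATPase, divided by sector. All 9 tested genes of the soluble V1 sector, which hydrolyses ATP, were lower (median -0.94, from -1.16 for ATP6V1G1 to -0.48 for ATP6V1E2). Of 8 genes of the V0 sector, which crosses the membrane, and its accessory proteins, 7 were higher (median 0.93, with ATP6AP1 at 0.98). The one lower V0 gene was ATP6V0D1 (-0.82), whose product is the V0 subunit that does not cross the membrane. The sectors were also separated after the values were seen.

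Transcription factors held in the ER membrane until they are cleaved were set beside soluble ones in lists drawn up after the values were seen. Of 7 tested ER-membrane factors, 6 were higher and 0 lower (median 0.71): SREBF2 (0.91), SREBF1 (0.77), ATF6B (0.75), NFE2L1 (0.71), ATF6 (0.70) and CREB3 (0.35). CREB3L2 was not called (0.24 ± 0.12). Of 14 soluble stress-response factors, 13 were lower and 0 higher (median -0.76), with ATF4 at -0.84. NFE2L2, the soluble relative of NFE2L1, was at 10.4, 15.5 and 19.8 FPKM in first and 4.56, 8.35 and 12.6 in R2 libraries and lower in every pair. NFE2L2 overlaps 11 other genes in the table, and strand use in counting is not given in the sources used here. XBP1, whose mRNA is spliced at the ER membrane, had neither protein feature and was higher by 0.97 ± 0.09.

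Cytosolic genes were lower in R2 libraries, 232 lower and 12 higher of 260, with a median of -0.92. GAPDH, a glycolytic enzyme often used as a reference, was at 693, 717 and 943 FPKM in first and 272, 338 and 451 in R2 libraries (-1.14 ± 0.13). ACTB, cytoplasmic actin, was at 958, 1487 and 2195 and then 388, 451 and 764. Neither reference gene's sets overlapped. Cytoskeleton genes gave 32 lower and 0 higher of 35 (median -1.16), chaperonin and heat shock genes 19 and 0 of 20 (median -1.05) and glycolysis 11 and 1 of 13 (median -1.06). Proteasome subunits, which bortezomib inhibits as a complex and NFE2L1 is known to regulate, gave 32 lower and 0 higher of 34 (median -0.94), with the drug's binding subunit PSMB5 at -1.01.

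Cytosolic ribosomal proteins gave 76 lower and 6 higher of 84, with a median of -0.87. The highest of the 6 was RPL36A (1.04), at a median of 1.47 FPKM in first libraries beside 213 for RPL3, and RPL36A overlaps another gene in the table. Among translation factors 46 were lower and 4 higher of 54. They include EIF2AK3, a kinase that spans the ER membrane (0.69), and EIF4A1 (1.01), which overlaps 5 other genes and was at a median of 1.74 FPKM in first libraries. Proteins that leave the cell without a signal peptide, a list chosen after the values were seen, were lower in 16 of 16 (median -1.03). The galectin LGALS1 differed by -1.39 and annexin ANXA2 by -0.94.

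Genes for nuclear proteins were lower by less, with 429 lower and 78 higher of 705 protein-coding members and a median of -0.37, beside -0.28 over all protein-coding genes. The nucleolar chaperone NPM1 was at 354, 379 and 414 FPKM in first and 92.9, 139 and 199 in R2 libraries. Nucleolar and ribosome assembly genes had a median of -0.70 and splicing genes of -0.63. Zinc finger genes, the largest list, had a median of -0.20 (143 lower and 42 higher of 298), close to that of all genes. NUP210, a nucleoporin that spans the nuclear envelope, was higher by 1.04, whereas NUP37, a soluble one, was lower (-1.01).

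Members of the nuclear lists with a gene type other than protein-coding gave 100 higher and 12 lower of 194, with a median of 0.65. Over all 1557 tested genes that are not protein-coding, 52.8% were higher, with a median of 0.48, beside 51.5% among those members. Host genes of small nucleolar RNAs gave 8 higher and 3 lower of 20 (median 0.15). MALAT1, a long RNA of nuclear speckles, was at 18.97, 25.8 and 40.9 FPKM in first and 31.4, 88.5 and 112 in R2 libraries. NEAT1, the scaffold of paraspeckles, was higher in 5 of 6 pairs (1.27 ± 0.22), at 21.3 and 21.1 FPKM in the control vehicle pair. Of the listed long noncoding RNAs, 9 of 11 were higher. Of the small nuclear and nucleolar RNAs, 79 of 151 (52.3%) were higher and 1 lower, near the share over all genes that are not protein-coding. Voom in limma on the recovered reads called 54 of them higher and 1 lower. This list took a median of 0.00544% of reads in first and 0.0107% in R2 libraries, so its values rest on few reads. Many small RNAs are shorter than the cDNA fragments the protocol selects for. By the table's own gene types, sense intronic transcripts were higher in 70 of 94 (median 0.71) and antisense genes in 220 of 345 (median 0.55). Long intergenic RNAs were less one-sided, with 93 higher and 59 lower of 258 (median 0.14), beside 30.2% higher over all genes. Without strand, reads of intronic and antisense genes cannot be told apart from those of the overlapping gene.

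Mitochondrial genes divided by genome. All 16 tested mitochondrially encoded RNAs were higher in R2 libraries (median 1.295). They took 5.44 to 6.80% of reads in first libraries and 12.3 to 19.3% in R2 libraries, more in 6 of 6 pairs, with Wilson 95% intervals for counting error up to 0.0359 percentage points wide. MT-ND1, a complex I subunit, was at 1424, 2198 and 3101 FPKM in first and 5427, 5886 and 6551 in R2 libraries. Nuclear-encoded mitochondrial genes were lower, 189 lower and 17 higher of 246 (median -0.70). The citrate cycle gave 17 lower and 0 higher of 18 (median -0.86), and mitochondrial ribosomal proteins 69 lower and 3 higher of 75 (median -0.82), with MRPL15 at 38.3 to 70.0 FPKM in first and 13.6 to 25.9 in R2 libraries. The 36 SLC25 carriers of the inner membrane gave 7 higher and 19 lower (52.8%, median -0.35). That is near the 52.8% lower and median of -0.28 over all protein-coding genes. The other SLC transporters had a median of 0.73. The ADP and ATP carrier SLC25A5 differed by -1.09.

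**Figure D4:**
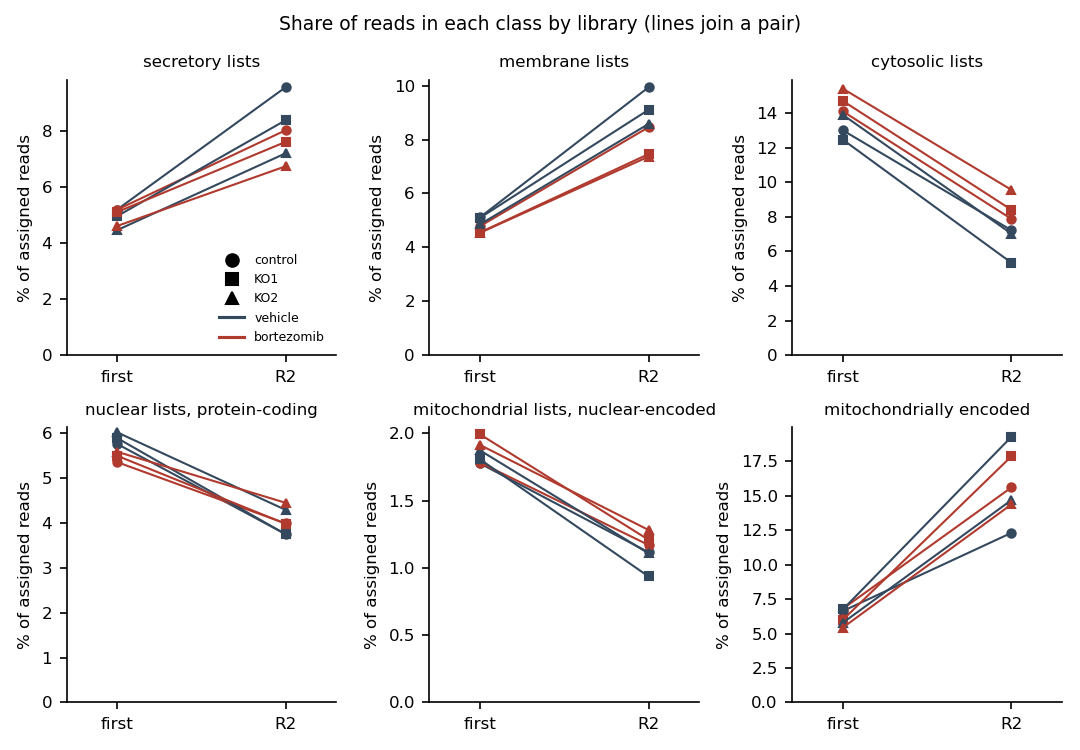
Percentage of assigned reads in the genes of each class in each library, with lines joining the first and R2 library of a group. Secretory, membrane and mitochondrially encoded shares are higher in R2 in all 6 pairs, and cytosolic, nuclear protein and nuclear-encoded mitochondrial shares are lower in all 6.

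Summed over all listed genes, the secretory share of reads had a median of 5.03% in first and 7.81% in R2 libraries, and the membrane share 4.82% and 8.52%. The cytosolic share was 12.5 to 15.4% in first and 5.34 to 9.56% in R2 libraries. These sets did not overlap. With mitochondrially encoded genes left out and FPKM rescaled, the secretory median was 0.88 and the membrane median 0.84, and after rescaling to a common median they were 0.97 and 0.91 and the cytosolic one -0.68. The nuclear class as a whole, -0.24, was -0.05 after that rescaling.

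The differences were also set against bortezomib and against the knockout. No gene was called by limma for a dependence on bortezomib (0 of 12194, 0%), while 2410 had an unadjusted p under 0.05, and the lowest adjusted p was 0.0777. Voom in limma on the recovered reads called 418 (301 with a higher and 117 with a lower R2 difference in bortezomib), and with a minimum mean of 5 FPKM limma called 252. Among the 37 lists of the 5 classes written first, the widest gap was that of cytosolic ribosomal proteins, with a median of -1.18 in vehicle and -0.55 in bortezomib pairs. Of these genes, 71 of 84 had an unadjusted p under 0.05, beside 2410 of 12194 over all genes. Voom called 55 of the 84, beside 3.43% of all genes. The cytosolic class was at -1.11 in vehicle and -0.74 in bortezomib, the secretory class at 0.85 and 0.61, and the mitochondrially encoded class at 1.21 and 1.36.

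**Figure D5:**
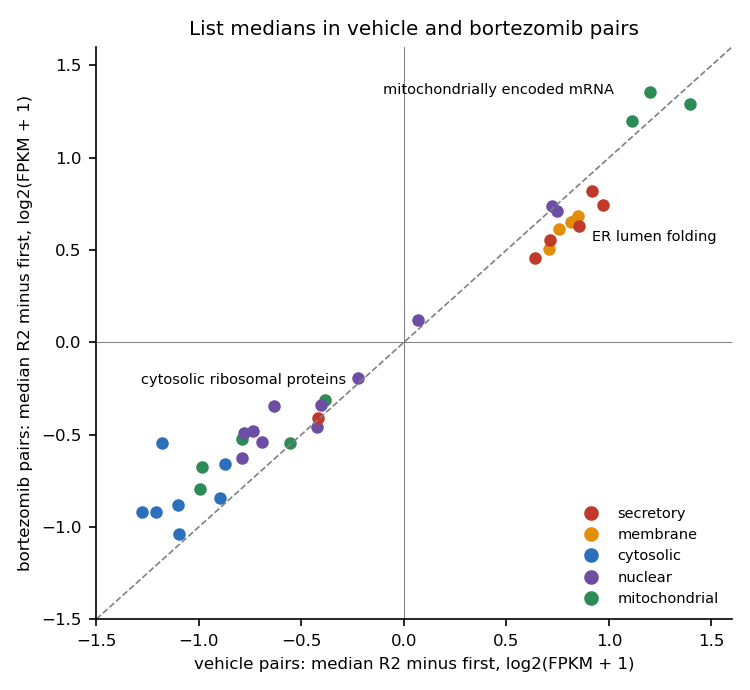
Median R2 minus first difference (log2(FPKM + 1) scale) of the 37 lists of the 5 classes written first, in the 3 vehicle pairs (x axis) and the 3 bortezomib pairs (y axis), with a dashed line of equality. Each of the 37 plotted lists keeps its sign, and cytosolic ribosomal proteins lie farthest from the line among them (-1.18 and -0.55).

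No gene was called for a dependence on the knockout (0 of 12194, 0%), while 828 had an unadjusted p under 0.05, the lowest adjusted p was 0.0658, and voom called 9. The first libraries of control groups have no suffix and those of KO groups carry R1, so this contrast also compares those titles, and the 2 cannot be told apart. With the KO lines alone 9056 genes were called between the sets, and with the control line alone, which leaves 2 pairs, 6182.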

How the data were processed

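RNA was sequenced in 12 A549 libraries. The deposited table gives FPKM for 58676 genes. The submitters' processing notes name CASAVA, STAR 2.5, HTSeq 0.6.1, DESeq2 and hg19 without roles, but all gene IDs are in GENCODE 29 and 95.2% have its GRCh38 position, so positions in the text are those of GRCh38. Strand use is not given in the sources used here. FPKM times length gave whole reads for 100% of values (tolerance 0.02 reads), which supplied the depth, 13211608 to 23819258 reads.

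Groups and library sets came from the titles. The 12194 genes (20.8%) averaging 1 FPKM or more were fitted with limma 3.58.1 (R 4.3.3, trend) on log2(FPKM + 1), a pseudocount that understates changes of low genes, with group as the replicate block and library set as the term tested. Genes were called at a Benjamini-Hochberg adjusted p under 0.05. The group term pairs each R2 library with its partner by title, as the comparison requires, and the fit was tested on simulated data. That simulation changed only a small share of genes, so it did not cover a difference as broad as the one reported. Further fits added the interaction of library set with bortezomib or knockout.

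The members and gene lists were chosen with earlier results of these data known: 37 lists of the 5 classes were written first and 13 after the values were seen, beside lists of cell markers and cell states. Lists taken by symbol pattern include some pseudogenes. Named genes were NFE2L1, the 12 largest rises and falls among called protein-coding genes with 1 sign in all pairs, and the extreme called member of each list in each direction. These are 82 of 121, and the rest were chosen after their values were seen. Other genes overlap 73 of the 121. Protein features came from translated GENCODE 29 coding sequence in place of RefSeq proteins. Alternatives covered pairing, pseudocount, filter, scaling, voom on whole reads, and subsets of pairs. Some genes and sequences are not reported here.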

Additional observations from a re-analysis of the deposited data

Results flagged for a closer look

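Among the 6 R2 libraries, KO2 in bortezomib stood apart in depth, with 22092106 assigned reads against 19261250 in the next and 18564919 in the lowest. The median R2 minus first difference of the nuclear long noncoding RNAs was 0.0303 in the control vehicle pair and 0.711 to 1.004 in the other 5 pairs. These were the 2 of 62 sets of 6 values in which 1 value lay far from the rest by Dixon's criterion, which chance meets in about 1 of 20.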

How the results depend on the processing

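In 22 fits, counting the one reported, no median of the 5 classes (the mitochondrial one in its nuclear and mitochondrially encoded parts) or of their 50 lists changed sign. The fits without a replicate block and the limma fit without trend alter only the errors. Their medians equal the reported ones by design, so a change of sign was not possible there. The mitochondrially encoded medians have no value in the fit that leaves those genes out. Lists of cell states and cell markers were not followed through all of these fits. The 1 endothelial gene tested, ESAM, was at -0.06 as reported, 0.11 after median rescaling and 0.05 with mitochondrially encoded genes left out. Without the replicate block, library set alone called 7043 genes (2551 higher and 4492 lower), and with treatment and line as additive terms 9591. The count was 6000 with a minimum of 5 FPKM, where 6947 genes were tested, and 6182 in the control line alone. Leaving out each pair in turn gave 9101 to 9494. The bortezomib dependence, at 0 in every such omission, was called in 252 genes with a minimum of 5 FPKM and 418 with voom. The knockout dependence was called in 1 gene with that minimum, 1 after median rescaling, 9 with voom and 0 to 3 with a pair left out. After quantile normalization, median rescaling and omission of mitochondrially encoded genes, the secretory median was 0.904, 0.968 and 0.883, the membrane median 0.849, 0.914 and 0.838, and the nuclear median -0.155, -0.0498 and -0.114. After quantile normalization and median rescaling the nuclear-encoded mitochondrial median was -0.526 and -0.494 and the mitochondrially encoded median 0.514 and 1.54, and the cytosolic median was -0.684 after median rescaling. With a pseudocount of 5 and with no filter, the membrane median was 0.465 and 0.383, the nuclear -0.119 and -0.0133, and the nuclear-encoded mitochondrial -0.480 and -0.408. The nuclear median was -0.484 with a minimum of 5 FPKM. Of 2525 recomputed values of named genes, 2473 kept direction and call, 45 lost the call (14 of them in the control line alone), 5 gained it and 2 reversed: MT-RNR2 at -0.0145 after quantile normalization and CREB3L2, not called, at -0.0310 in bortezomib pairs alone. The causes of these changes were not tested. Apart from NFE2L1, the genes named by rule were chosen as called with 1 sign in all pairs. Fits on subsets of pairs therefore could not reverse their direction, and its retention there is no separate evidence. Genes near 1 FPKM rest on few reads.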

Other observations

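The gene programmes of cholesterol synthesis and hypoxia held both directions in the comparison of R2 with first libraries. Of 19 cholesterol synthesis genes, 10 (52.6%) were higher in R2 libraries, beside 30.2% of all genes tested. Among them were MSMO1 (1.09) and DHCR7 (0.97). The 3 lower ones were PMVK (-1.06), IDI1 (-0.69) and FDFT1 (-0.58), and HMGCS1 was not called (-0.21). Of 8 hypoxia genes, 5 (62.5%) were higher, including SLC2A1 (0.97), VEGFA (0.69) and ADM (0.82). The 2 lower ones were BNIP3 (-0.82) and NDRG1 (-0.76). Members of these programmes were not sorted by compartment here.

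G2 and M phase genes gave 16 lower and 0 higher of 19 (median -0.65). Interferon response genes gave 5 lower (55.6%) and 1 higher of 9 (median -0.34). The interferon values are near the 52.8% lower and median of -0.28 over all protein-coding genes. Among A549 markers 9 of 14 (64.3%) were lower, beside 52.8% over all protein-coding genes, 1 was higher and 4 were not called. The higher one was the surface adhesion protein EPCAM (0.61). The lowest value of the list was that of the cytosolic reductase NQO1 (-1.10).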
